A study of Homo sapiens with 16 samples.

Results

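The regions described here are the MED1 peaks that appeared in the peak list of wild-type (WT) HCT116 cells given Nutlin-3a and had no counterpart in the list of WT cells given DMSO. They were chosen from the deposited positions: a peak of the Nutlin-3a list was taken when not even 1 bp of it lay in a DMSO peak. This gave 439 of the 1254 Nutlin-3a peaks (35.0%, Wilson 95% interval 32.4 to 37.7%), called Nutlin-only peaks from here on. The 6 lists of the series hold 3464 peaks in all. The choice used the positions of both WT lists, so the number, strength and spacing of these peaks are given as descriptions without a test.

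HCT116 is a human colorectal carcinoma line. WT cells had received DMSO or Nutlin-3a for 1 h, and the 2 MED1 libraries of each treatment share 1 peak list. The second line, CRISPR/Cas9-edited HCT116 of genotype OsTir1+/-;Med14-AID+/+ (MED14-AID), carries an auxin-inducible degron on the Mediator subunit MED14 and the plant F-box protein OsTir1, which targets the degron for destruction when auxin is present. It had received water or 500 µM auxin for 3 h, without Nutlin-3a or with 1 h of Nutlin-3a afterwards, with 1 MED1 library and 1 peak list per condition. No vehicle is named for the MED14-AID samples without Nutlin-3a, and whether that line is a single clone is not given in the sources used here. The series has 16 samples, 8 MED1 libraries and 8 inputs, and the lists hold no read totals, so depth is unknown.

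Mediator is a large complex that carries signals from transcription factors on enhancers and promoters to RNA polymerase II, and MED1 is the subunit most often used to mark active enhancers by ChIP-seq. MED14 is the backbone that holds the parts of Mediator together. Nutlin-3a keeps the ubiquitin ligase MDM2 off p53, so that p53 accumulates and activates genes for cell-cycle arrest, DNA repair and apoptosis. HCT116 cells carry wild-type p53.

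Gene names below come from gene spans on hg19 entered by hand from general knowledge, not from an annotation of that build. They cover 32 p53 target genes, 23 genes chosen for hepatocytes as another cell type, 15 genes of colon epithelium and 4 genes at leading peaks. Peaks within 50 kb of a span were counted as near it. In the Nutlin-3a list, 19 of 1254 peaks (1.52%) were near a colon epithelium gene, beside 17 (1.36%) near a hepatocyte gene. Whether the 19 reflect the labelled cell type was not tested. The 19 lay near the keratin genes KRT8, KRT18 and KRT20 and the epithelial transcription factor genes ELF3, EHF and KLF5, which is 6 of the 15 genes. EPCAM, CDH1, VIL1, CDX1, CDX2, LGR5, ASCL2, AXIN2 and CDH17 had none.

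The strongest Nutlin-only peaks included 2 kinds that differed in the MED14-AID lists. The first was listed again in MED14-AID cells with Nutlin-3a but not without it, and is led by positions at YY1 and SKOR1. It made up 23 of the 439 Nutlin-only peaks (5.24%), a smaller share than among all Nutlin-3a peaks (8.37%). The second lay inside genes of liver secretory proteins, among them SERPINA1, APOA1, APOE, FGA and HP, and was listed in MED14-AID cells without Nutlin-3a too. Below these, most Nutlin-only peaks were low, narrow and in no MED14-AID list.

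The authors' fold enrichment, the height of a peak over the local background, had a median of 3.02 in the Nutlin-only peaks, with quartiles of 2.66 and 3.39 and a range of 1.34 to 13.8. The −log10 of the peak's q-value ranged from 2.28 to 163 with a median of 7.37. Widths ran from 500 bp, the shortest width in every list, to 2771 bp, with a median of 638 bp against 972 bp for peaks in both WT lists. The Nutlin-only peaks covered 312 kb, which was 22.9% of the bases in the Nutlin-3a list.

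Nutlin-only peaks were thus frequent among weak peaks and rare among strong ones. Of 118 Nutlin-3a peaks with a fold under 2.5, 63 (53.4%) were Nutlin-only. Between folds of 2.5 and 3 the count was 150 of 257 (58.4%), and between 3 and 4 it was 190 of 486 (39.1%). Between folds of 4 and 5 it was 21 of 185 (11.4%, 7.55 to 16.7%). At a fold of 5 or more, 15 of 208 peaks were Nutlin-only, and 5 of 198 (2.53%) when peaks near hepatocyte genes were left out, a setting chosen after the data were seen. Those 5 lie at YY1, near SKOR1, at H19, on chromosome 6 from 41704498 and on chromosome 14 from 68931149. Split into 3 equal parts by −log10 q, the list held 255 Nutlin-only peaks in the weakest 418 (61.0%), 151 in the middle 418 (36.1%) and 33 in the strongest 418 (7.89%).

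**Figure D1:**
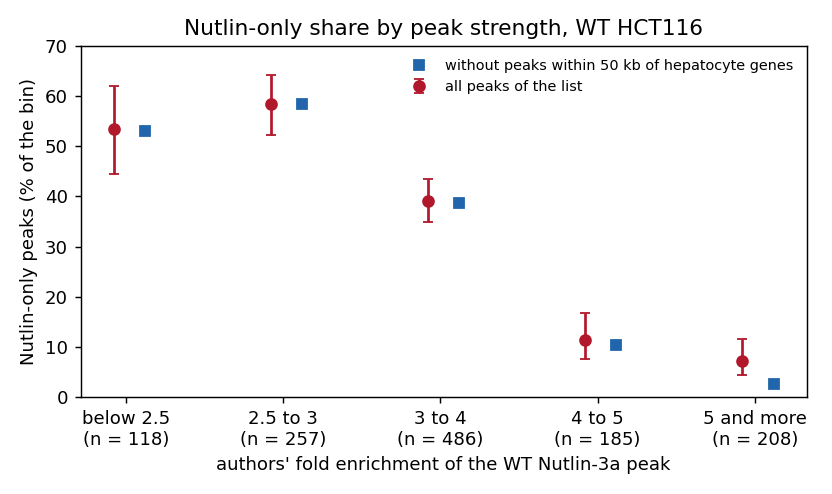
Share of WT Nutlin-3a peaks that were Nutlin-only (y axis, percent) in 5 bins of the authors' fold (x axis, with the number of peaks in the bin). Circles with bars are all peaks with Wilson 95% intervals, squares leave out peaks within 50 kb of hepatocyte genes. The share lies at 53.4 and 58.4% in the weakest 2 bins, and at the strongest bin the square (2.53%) lies under the circle (7.21%).

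The DMSO-only peaks, 293 of the 1106 WT DMSO peaks (26.5%), are the mirror of this set. Their median fold was 2.76, their median −log10 q was 5.39 and their median width was 586 bp, beside medians of 3.19, 9.34 and 760 bp for all DMSO peaks. For the Nutlin-3a list the medians of all peaks were 3.41, 11.4 and 818 bp, so both sets lay under the medians of their own lists. With −log10 q of at least 10, 113 of 713 Nutlin-3a peaks (15.8%, 13.4 to 18.7%) were Nutlin-only and 31 of 518 DMSO peaks (5.98%, 4.25 to 8.37%) were DMSO-only. Without hepatocyte loci the Nutlin-only count was 98 of 698 (14%, 11.7 to 16.8%). Each value describes a joint list of 2 libraries. No spread between cultures can be set beside the difference, and the depth of the libraries is unknown.

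Some Nutlin-only peaks lay close to a DMSO peak, but more lay over 100 kb from any. The median distance to the nearest DMSO peak was 132 kb, with quartiles of 5.04 and 949 kb. A DMSO peak lay within 1 kb of 48 Nutlin-only peaks (10.9%), and at 1 kb to 12500 bp from another 96 (21.9%). The limit of 12500 bp is the distance commonly used to join neighbouring enhancer peaks into one cluster. At the far end, 227 (51.7%, 47.0 to 56.3%) were more than 100 kb from any DMSO peak, and 106 of these more than 1 Mb. In the mirror set, 72 of 293 DMSO-only peaks (24.6%, 20 to 29.8%) had a Nutlin-3a peak within 12500 bp, against 144 of 439 (32.8%, 28.6 to 37.3%) here. More than 100 kb from any Nutlin-3a peak lay 179 DMSO-only peaks (61.1%, 55.4 to 66.5%), so long distances were not particular to the Nutlin-only peaks. The 293 DMSO-only peaks include 3 on chromosome Y, where no Nutlin-3a peak was listed and no distance exists.

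At the edge of the rule, the closest Nutlin-only peaks were on chromosome 11, 121558758 to 121559383, chromosome 6, 159153182 to 159153859, and chromosome 12, 52628477 to 52629261. They lay 20, 27 and 46 bp from a DMSO peak, with folds of 3.01, 2.34 and 3.37. Just outside the set were peaks on chromosome 4 from 30951579, chromosome 8 from 94896802 and chromosome 17 from 39811486. They overlapped a DMSO peak by 10, 11 and 35 bp, with folds of 2.52, 2.06 and 3.16. Only 4 Nutlin-only peaks were within 100 bp of a DMSO peak, and 7 shared peaks overlapped by 100 bp or less.

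**Figure D2:**
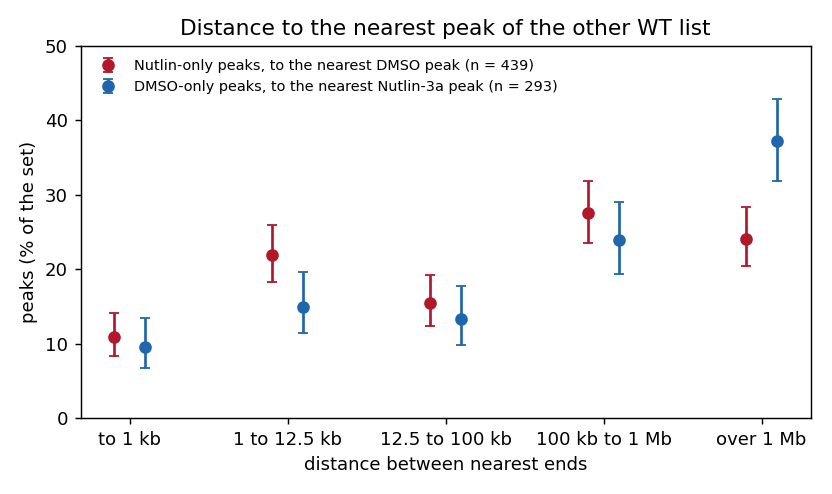
Percent of peaks (y axis) by the distance between nearest ends to the closest peak of the other WT list (x axis, 5 classes), for Nutlin-only peaks (red) and DMSO-only peaks (blue), with Wilson 95% intervals. Over 1 Mb lie 24.1% of the Nutlin-only and 37.2% of the DMSO-only peaks.

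DMSO peaks next to Nutlin-only peaks had slightly higher medians of fold and width than all DMSO peaks, of which they are part. The difference was not tested. The 144 Nutlin-only peaks within 12500 bp of a DMSO peak had 121 different nearest DMSO peaks. The median fold of these 121 was 3.30 against 3.19 for all DMSO peaks, and their median width was 901 bp against 760 bp. Of these neighbours, 108 (89.3%) were listed with Nutlin-3a too, against 73.5% of all DMSO peaks. With water plus Nutlin-3a, the MED14-AID line had 62 of these neighbours (51.2%), against 34.8% of all DMSO peaks. The Nutlin-only peaks themselves were in some MED14-AID list in 25 of 144 cases (17.4%, 12.0 to 24.4%) when this near. Farther away it was 30 of 295 (10.2%, 7.22 to 14.1%), and 18 of 278 (6.47%, 4.13 to 10.0%) without hepatocyte loci.

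Joining peaks of the WT lists that lay up to 12500 bp apart gave 1014 regions, of which 373 held a Nutlin-only peak. In 111 regions a DMSO peak was present as well, and these held 147 of the Nutlin-only peaks. The other 262 regions had no DMSO peak, and 239 of them consisted of a single Nutlin-only peak. Only 5 had 3 or more. The fullest was on chromosome 6, 41704498 to 41712912, with 5 peaks at folds of 6.79, 4.62, 3.83, 3.35 and 3.33. It lies at PGC, the gene of the stomach protease precursor pepsinogen C, which was named after the values were seen. In MED14-AID cells only the peak from 41710064 had a counterpart, at a fold of 4.62 with water plus Nutlin-3a.

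The other regions with 3 Nutlin-only peaks and no DMSO peak were SERPINA1 on chromosome 14, the APOA4, APOC3 and APOA1 genes on chromosome 11, chromosome 19 from 13264182 and chromosome 12 from 53265093, near KRT8. Their highest folds were 9.03, 7.47, 3.17 and 2.98. Among regions that DMSO peaks shared, chromosome 1 from 8130441 had 4 Nutlin-only peaks beside 3 DMSO peaks, and chromosome 16 from 69431483 had 4 beside 1. In the first, Nutlin-only peaks lay among several DMSO peaks, and in the second beside a single one.

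Every chromosome with Nutlin-3a peaks had Nutlin-only peaks. Of the 23 chromosomes, 22 had a share whose 95% interval held the 35.0% of the whole list. The exception was chromosome 16, with 21 of 38 peaks (55.3%, 39.7 to 69.9%). DMSO-only peaks were also frequent there, at 15 of 32 DMSO peaks (46.9%), and the median −log10 q of its Nutlin-3a peaks was 8.88, under the 11.4 of the whole list. On chromosome 14, 26 of 55 Nutlin-3a peaks (47.3%) were Nutlin-only but 7 of 36 DMSO peaks (19.4%) were DMSO-only. Chromosome 12 held the most Nutlin-only peaks, 40 of 120 (33.3%). The lowest share among autosomes was on chromosome 18, with 5 of 21 (23.8%, 10.6 to 45.1%). The intervals cover the counting of peaks only and are wide where a chromosome has few peaks. Neither a difference between chromosomes nor an even share is read from them.

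**Figure D3:**
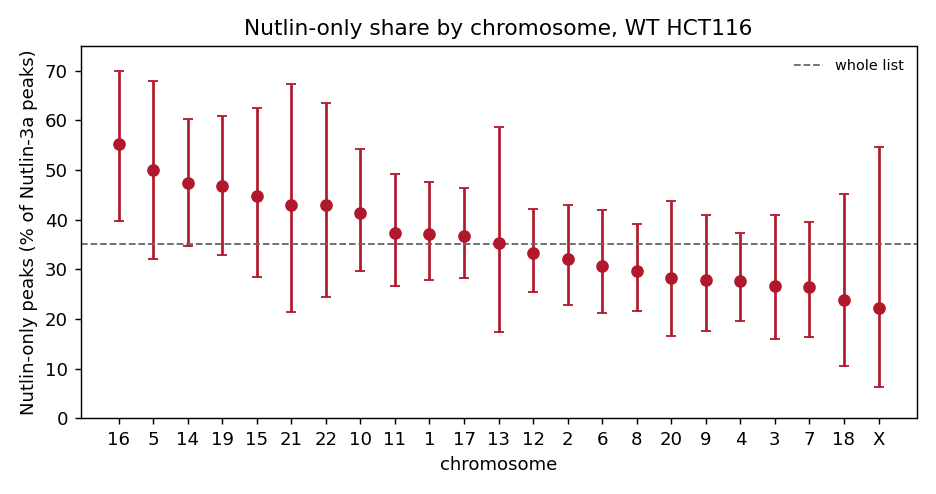
Percent of the Nutlin-3a peaks of each chromosome that were Nutlin-only (y axis) for the 23 chromosomes (x axis, by falling share), with Wilson 95% intervals and the share of the whole list as a dashed line. Chromosome 16 (55.3%) is the one whose interval lies above the line.

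The MED14-AID libraries were not used to choose the peaks. Of the 439 Nutlin-only peaks, 55 (95% interval 9.75 to 16%) were listed in MED14-AID cells under at least 1 condition, against 39.6% of all Nutlin-3a peaks. With water, 28 (6.38%, 4.45 to 9.06%) were listed, against 30.9% of all Nutlin-3a peaks. With water plus Nutlin-3a it was 46 (10.5%, 7.95 to 13.7%), against 33.2%. After auxin, 13 (2.96%, 1.74 to 5.0%) were listed without Nutlin-3a, against 3.91%. With auxin plus Nutlin-3a, 4 (0.911%, 0.355 to 2.32%) were, against 4.94%. Shared peaks were found again with water in 359 of 815 cases (44.0%) and DMSO-only peaks in 8 of 293 (2.73%, 1.39 to 5.29%).

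Strength and presence in MED14-AID cells went together. In the weakest part of the list, 11 of 255 Nutlin-only peaks (4.31%, 2.43 to 7.56%) were listed again under water plus Nutlin-3a, against 23 of 163 shared peaks (14.1%, 9.59 to 20.3%). In the middle part the counts were 16 of 151 (10.6%, 6.63 to 16.5%) and 78 of 267 (29.2%, 24.1 to 34.9%). In the strongest part they were 19 of 33 (57.6%, 40.8 to 72.8%) and 269 of 385 (69.9%, 65.1 to 74.2%). Without hepatocyte loci the strongest part held 8 of 22 (36.4%, 19.7 to 57.0%). The share with water plus Nutlin-3a was thus lower for the Nutlin-only than for the shared peaks in each part. With auxin the strongest part went the other way, at 11 of 33 Nutlin-only peaks (33.3%) against 34 of 385 shared peaks (8.83%), but 1 of 22 (4.55%) without hepatocyte loci. With auxin plus Nutlin-3a it was 4 of 33 (12.1%) against 54 of 385 (14%). The parts were not matched further for strength, and none of these differences was tested, since each condition has 1 library.

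**Figure D4:**
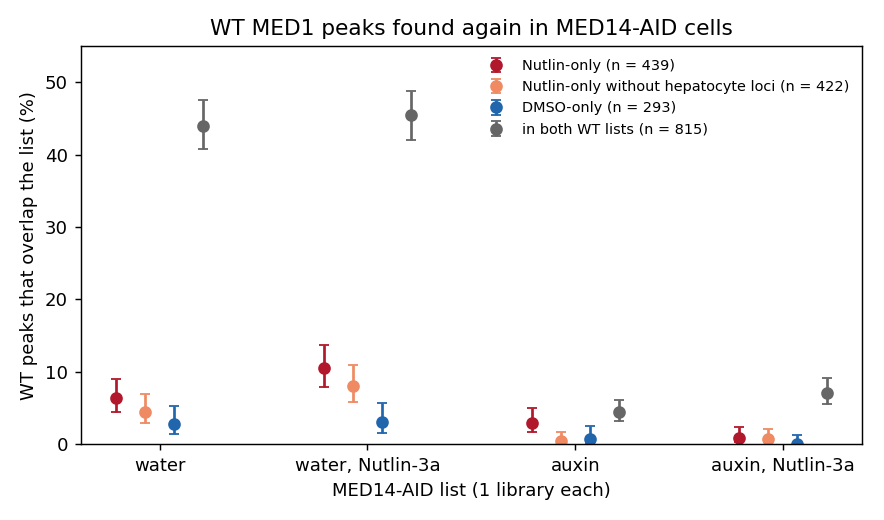
Percent of WT peaks that overlap a peak of each MED14-AID list (y axis; 4 lists on the x axis, 1 library each), for Nutlin-only peaks, the same without hepatocyte loci, DMSO-only peaks and peaks in both WT lists, with Wilson 95% intervals. With auxin alone the Nutlin-only value falls from 2.96 to 0.474% when hepatocyte loci are left out.

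The presence of Nutlin-3a in MED14-AID cells with water divided the Nutlin-only peaks as follows. In 25 (5.69%, 3.89 to 8.27%) the peak was listed with water plus Nutlin-3a and not with water, against 8.05% of all Nutlin-3a peaks. In 7 (1.59%, 0.774 to 3.25%) it was listed with water alone, against 5.74%. In 21 (4.78%) it was listed in both. Among shared peaks these counts were 76, 65 and 294 of 815, and among DMSO-only peaks 6, 5 and 3 of 293. Both shares of the Nutlin-only peaks were under those of all Nutlin-3a peaks, and the difference between the classes was not tested, since each condition has 1 library. Without hepatocyte loci the Nutlin-only counts were 22 and 7 of 422. A looser match would add some peaks: of the 411 that were not listed with water, 27 had a water peak within 1 kb, and of the 393 not listed with water plus Nutlin-3a, 19 had a peak of that list within 1 kb.

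Over all 4 lists, 23 Nutlin-only peaks (5.24%) were listed in MED14-AID cells with Nutlin-3a only, against 8.37% of all Nutlin-3a peaks. They lay on 14 chromosomes, had folds of 2.64 to 13.8 in WT cells with a median of 3.28, and 10 of them were within 12500 bp of a DMSO peak. None was near a hepatocyte gene. Another 8 (1.82%) were listed only without Nutlin-3a, against 5.18%, and all 8 were within 12500 bp of a DMSO peak. A further 24 (5.47%) were listed under both kinds of condition, against 26.1% of all Nutlin-3a peaks. These 24 had a median fold of 5.13, and 12 of them were near a hepatocyte gene. The remaining 384 had a median fold of 2.96, and 79 of them reached a −log10 q of 10.

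The highest Nutlin-only peak lay on chromosome 14, 100743337 to 100745126, at the end of YY1, the gene of a transcription factor that bridges enhancers and promoters. Its fold was 13.8 with a −log10 q of 163, and the nearest DMSO peak was 414 kb away. In MED14-AID cells the fold was 3.78 with water plus Nutlin-3a and 14.6 with auxin plus Nutlin-3a, and no peak was listed without Nutlin-3a. The second lay on chromosome 15, 68131981 to 68133063, near SKOR1, which encodes a transcriptional corepressor. It had a fold of 12.6, and the only MED14-AID list that held it was the one with auxin plus Nutlin-3a (fold 8.91). Its nearest DMSO peak was 2534 kb away. A weaker position in the same lists as YY1 was on chromosome 2, 113012335 to 113013014. Its fold was 4.26 in WT cells, 4.27 with water plus Nutlin-3a and 5.21 with auxin plus Nutlin-3a. These 3 positions are the Nutlin-only peaks that the list with auxin plus Nutlin-3a held and the list with auxin alone lacked (0.683%), against 2.31% of all Nutlin-3a peaks. The reverse, a peak with auxin that was missing when Nutlin-3a followed, was found for 12 Nutlin-only peaks (2.73%), against 1.28% of all Nutlin-3a peaks, and 10 of these were near a hepatocyte gene.

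Of the 10 highest Nutlin-only peaks that were listed with water plus Nutlin-3a but not with water, YY1 was followed by peaks in the hepatocyte genes APOA2 (fold 5.95) and ALB (4.98), and FGB (3.70) was also among them. These 3 were listed with auxin too and are described with the hepatocyte genes. The other 6 included the chromosome 2 position and had folds of 3.48 to 4.38 in WT cells. Another 3 of the 6 were on chromosome 12, 66172768 to 66173443 (fold 4.38), chromosome 20, 30291835 to 30292882 (4.24), and chromosome 11, 65265721 to 65266949 (4.06). Their folds with water plus Nutlin-3a were 4.17, 5.31 and 4.20, and these 3 were in neither list after auxin. The chromosome 11 position, 0.246 kb from a DMSO peak, lies at the abundant long noncoding RNA gene MALAT1, named after the values were seen. Lower ones were on chromosome 4, 169462224 to 169463326 (3.54), and chromosome 18, 9869690 to 9870283 (3.48), with 3.25 and 3.63 in MED14-AID cells. The first of these was 4.02 kb and the second 6203 kb from a DMSO peak, so this behaviour was seen both beside DMSO peaks and far from them.

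**Figure D5:**
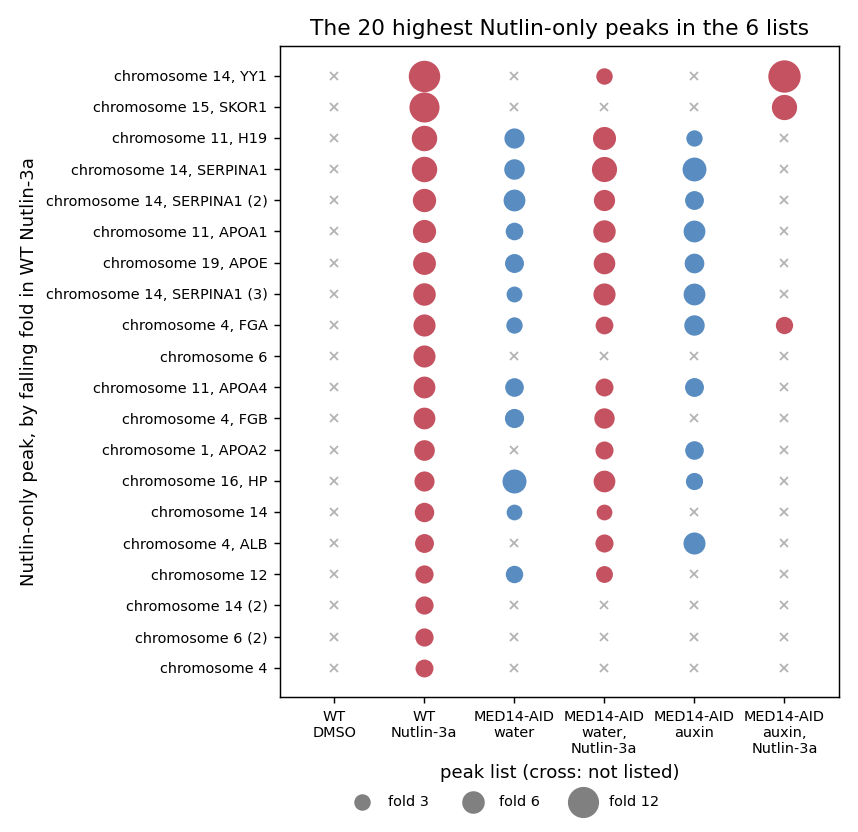
The 20 Nutlin-only peaks with the highest authors' fold in WT Nutlin-3a (rows, named by chromosome and, where it is in the lists of genes, the gene) in the 6 peak lists (columns). Circle area is proportional to the fold within that list, red marks lists with Nutlin-3a and blue those without, and a cross marks a list without the peak; 11 of the 20 lie inside hepatocyte genes. YY1 and SKOR1 are present with auxin plus Nutlin-3a, while most hepatocyte rows are present with auxin alone.

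Hepatocyte genes had 17 Nutlin-only peaks (3.87%, 2.43 to 6.11%), against 17 of all 1254 Nutlin-3a peaks (1.36%). Every Nutlin-3a peak near these genes was therefore Nutlin-only, and 0 of 1106 DMSO peaks were near one. A count of 0 there allows a share of up to 0.271%, taking 3 peaks of the total as the limit, and the Wilson upper bound is 0.346%. All 17 lay inside a gene of the list, in 13 of the 23 genes, and 10 of them had a fold of at least 5. The nearest DMSO peak was 117 kb away or farther. The list was drawn up for hepatocytes, another cell type than the labelled one, and how particular each gene is to hepatocytes was not tested. Whether the signal at these genes belongs to the HCT116 cells was not tested either. Every fold and count at hepatocyte genes, here and above, carries that limit. The genes encode plasma proteins, lipid carriers and clotting factors that the liver secretes in large amounts.

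SERPINA1, the gene of the protease inhibitor alpha-1-antitrypsin, held 3 of them on chromosome 14, from 94844744, 94847221 and 94849000. Their folds were 7.08, 7.58 and 9.03 in WT cells with Nutlin-3a. With water they were 3.51, 6.63 and 5.86, with water plus Nutlin-3a 6.84, 6.28 and 8.83, and with auxin 6.63, 4.95 and 7.96. All 3 were listed in those conditions and none with auxin plus Nutlin-3a.

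The apolipoprotein genes, whose products carry lipids in plasma, held 6. At the cluster on chromosome 11 the peaks lay in APOA4, APOC3 and APOA1, from 116691647, 116703094 and 116706536, with folds of 6.64, 4.19 and 7.47. APOE on chromosome 19 (from 45411361) had 7.29, APOA2 on chromosome 1 (from 161192113) 5.95 and APOB on chromosome 2 (from 21231567) 2.27. The peaks in APOA4, APOA1 and APOE were listed with water at folds of 4.85, 4.33 and 5.01, under water plus Nutlin-3a at 4.50, 7.01 and 6.51 and under auxin at 4.98, 6.63 and 5.39. APOA2 was listed with water plus Nutlin-3a (4.55) and with auxin (4.83). The weaker peaks in APOC3 and APOB were in no MED14-AID list.

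The fibrinogen genes on chromosome 4 held 3 peaks, 2 in FGB from 155490246 and 155491177 and 1 in FGA from 155506736, with folds of 3.70, 6.6 and 6.83. The first was listed with water plus Nutlin-3a (5.07) and with auxin (4.56), and the second with water (5.13) and with water plus Nutlin-3a (5.79). The FGA peak was the only Nutlin-only peak in all 4 MED14-AID lists, with folds of 3.74 with water, 4.40 with water plus Nutlin-3a, 5.81 with auxin and 4.18 with auxin plus Nutlin-3a. ALB, the albumin gene on chromosome 4, had peaks from 74278769 and 74283426 with folds of 3.73 and 4.98. The second was listed with water plus Nutlin-3a (4.56) and with auxin (6.77). HP, the haptoglobin gene on chromosome 16, had a peak from 72093924 with a fold of 5.63, and its folds in MED14-AID cells were 8.02 with water, 6.57 with water plus Nutlin-3a and 4.12 with auxin. AMBP (fold 3.09) and RBP4 (3.48), the genes of further plasma proteins, had 1 peak each and none in MED14-AID cells. AFP, APOC1 and FGG had no peak inside the gene, and APOH, TTR, TF, AHSG, CYP3A4, CPS1 and SERPINC1 had none within 50 kb.

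Counted over each list, peaks near hepatocyte genes numbered 9 of 463 with water (1.94%), 12 of 522 with water plus Nutlin-3a (2.30%), 11 of 53 with auxin (20.8%, 12.0 to 33.5%) and 1 of 66 with auxin plus Nutlin-3a (1.52%, 0.268 to 8.10%). In the WT lists these genes thus had peaks with Nutlin-3a and none with DMSO, while after auxin they had more peaks without Nutlin-3a than with it. Of the 13 Nutlin-only peaks in the auxin list, 11 were near a hepatocyte gene, and without them the auxin list held 2 of 422 (0.474%, 0.130 to 1.71%). Without hepatocyte loci the Nutlin-only share of the WT list was 422 of 1237 (34.1%). The part that peaks near hepatocyte genes have in the difference between the lists was not tested.

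H19, the gene of an imprinted long noncoding RNA that is abundant in fetal liver, held the widest Nutlin-only peak, chromosome 11, 2016509 to 2019279, with a fold of 9.03. MED14-AID cells had it at 5.68 under water, 7.43 under water plus Nutlin-3a and 3.72 under auxin, and the list with auxin plus Nutlin-3a lacked it. The next widest were on chromosome 12, 76104670 to 76107206 (fold 4.63; 4.25 with water and 3.97 with water plus Nutlin-3a), and chromosome 8, 29206636 to 29208494 (fold 3.18), the latter in no MED14-AID list.

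Near p53 target genes there were 4 Nutlin-only peaks (0.911%, 0.355 to 2.32%), against 7 of all 1254 Nutlin-3a peaks (0.558%). Of the 32 genes, 3 had such a peak. One peak lay inside a target gene, GDF15, which encodes a secreted stress cytokine of the TGF-beta superfamily, on chromosome 19, 18499115 to 18499832. Its fold was 4.07 with a −log10 q of 14, the nearest DMSO peak was 644 kb away, and no MED14-AID list held it. Another 2 lay past the end of BAX, the gene of a pro-apoptotic pore protein, on chromosome 19 from 49468233 and 49469426 (folds 3.35 and 4.18). That place is at FTL, the ferritin light chain gene, named after the values were seen. The fourth lay near PLK3, the gene of a stress-responsive kinase, on chromosome 1, 45240984 to 45241688 (fold 3.11), and none of the 4 was in a MED14-AID list.

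The other p53 target genes gave no Nutlin-only peak. MDM2 and KITLG had 1 peak in each WT list, and POLH had 1 in the DMSO list only. MDM2 also had the only peak near a p53 target gene in any MED14-AID list, with water plus Nutlin-3a (fold 3.64). In all, 26 of the 32 genes had no peak within 50 kb in any of the 6 lists. Among them were CDKN1A, which encodes the cell-cycle inhibitor p21, the apoptosis genes BBC3 and FAS, and BTG2, SESN1, SESN2, ZMAT3 and GADD45A. In the mirror set, 2 of 293 DMSO-only peaks (0.683%, 0.187 to 2.45%) were near p53 target genes. The difference from the 4 of 439 Nutlin-only peaks (0.911%) was not tested. Weaker binding under the authors' threshold is not seen in peak lists.

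Near colon epithelium genes there were 9 Nutlin-only peaks (2.05%, 1.08 to 3.85%), against 19 of all 1254 Nutlin-3a peaks (1.52%). KRT8 and KRT18, which encode the paired keratins of simple epithelia, had 6 of them on chromosome 12. The highest lay in KRT18 from 53342852 (fold 3.91), and those from 53265093, 53267535, 53268160, 53320861 and 53363657 had folds of 2.79, 2.98, 2.82, 2.79 and 2.90. None was in a MED14-AID list. EHF, the gene of an epithelial ETS factor, had 1 from 34655028 on chromosome 11 (fold 3.93), which had a counterpart under water alone (3.75). KLF5 (chromosome 13, from 73664294, fold 2.92) and KRT20 (chromosome 17, from 39066907, fold 2.24) had 1 each. Unlike the hepatocyte peaks, 7 of these 9 lay outside the genes and 10 shared peaks were near the same list of genes.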

How the data were processed

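MED1 ChIP-seq peak lists of HCT116 cells were used as deposited. Per the submitters' processing notes, Bowtie 0.12.9, MACS2 2.1.2 and the build hg19 were used; the settings, and how the replicates of a WT list were merged, are not given in the sources used here. The deposited fold enrichment is a ratio over local background, and −log10 q is the deposited strength of a peak. The deposited score, a whole number made from it, and the deposited summit offset play no part in the results. Folds describe or rank peaks within 1 list.

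Overlap of at least 1 bp, distances between nearest ends and joined regions (12500 bp) were computed with Python 3.11.15, numpy 2.4.6, pandas 2.3.3 and scipy 1.17.1, and figures with matplotlib 3.10.9. On simulated copies from the DMSO list, 300 of 300 copies were recovered and 0 of 200 distant peaks were called shared; 0 of 30 overlap counts differed from bedtools. Wilson intervals cover the counting of peaks only, and no test was made, since peaks are not replicates. Where several peaks of a list overlapped 1 Nutlin-only peak, the highest fold is given.

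The regions and gene lists were chosen with earlier results of these data known. Named were the 10 highest Nutlin-only peaks, the 10 highest listed with water plus Nutlin-3a but not with water, those within 50 kb of a listed gene, the 3 at either side of the rule's edge and the 3 widest. The gene spans were entered by hand, rounded to 1 kb; in the RefSeq gene table of GRCh38.p14 all 74 had the same chromosome and 64 the same length within 2 kb or 10%. No genome of hg19 was used here, so no peak sequence is shown. Positions are 1-based. Alternatives were a reciprocal overlap of 50%, a 1 kb gap, −log10 q of at least 10, equal lengths, chromosomes 1 to 22 and X, leaving out 12 peaks, a 10 kb limit for genes and, added later, leaving out hepatocyte loci.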

Additional observations from a re-analysis of the deposited data

Results flagged for a closer look

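In 12 of the Nutlin-only peaks of WT cells, MED1 was listed with auxin but was missing with auxin plus Nutlin-3a, so that the lists with and without Nutlin-3a differed in opposite ways in the WT pair and in the auxin pair; 16 of all 1254 Nutlin-3a peaks (1.28%) had this presence. Of the 12, 10 were inside hepatocyte genes, 1 was at H19 and 1 was on chromosome 1 from 142536442, 0.138 kb from a DMSO peak. The folds of the 12 were 1.58 to 9.03 in WT cells with Nutlin-3a and 1.74 to 7.96 with auxin. The chromosome 1 peak had the lowest of both. In 7 others (1.59%) the peak was listed with water but missing with water plus Nutlin-3a. That is a smaller share than the 72 of all 1254 Nutlin-3a peaks (5.74%) with this presence. The 7 had folds of 2.32 to 3.93 in WT cells and 2.96 to 4.41 with water, and none of these was near a hepatocyte gene. They lay on chromosome 11 from 34655028 and 27897198, chromosome 3 from 139017895, chromosome 14 from 69245574, chromosome 17 from 39821958, chromosome 12 from 76103356 and chromosome 8 from 126511828. Neither difference was tested, since each MED14-AID condition has 1 library.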

How the results depend on the processing

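No paired analysis was possible because the 2 replicates of each WT treatment share 1 peak list, and for the same reason no replicate could be left out. Of 51 values under the first alternatives, 36 stayed close to the main value, as did 6 of the 7 under the added one. For shares and medians, close meant inside the 95% interval of the main value. The hepatocyte and p53 target counts within 10 kb have no interval and were judged by their ratio to the main count. The Nutlin-only share was 43.1% with 50% reciprocal overlap, 31.2% with a 1 kb gap, 15.8% when the Nutlin-3a list alone was limited to −log10 q of 10 or more, 37.7% with that limit in every list and 30.7% with equal lengths. The median fold was 3.75, 3.70 and 3.18 in the last 3. The share with a DMSO peak within 12500 bp was 45.4% with reciprocal overlap, where partly overlapping peaks enter by construction, and 24.6% with the gap, which takes out close peaks by construction. With the limit on the Nutlin-3a list alone, 17.7, 26.5, 10.6 and 3.54% of the Nutlin-only peaks were listed with water, water plus Nutlin-3a, auxin, and auxin plus Nutlin-3a. The auxin share was 0.234% without the 12 peaks that auxin had and auxin plus Nutlin-3a lacked, and 0.474% without hepatocyte loci. For the other values the cause was not tested. Within 10 kb of a gene, 17 hepatocyte and 3 p53 target peaks were left. The hepatocyte count could not fall, since all 17 peaks lie inside a gene. Depth is unknown and weak peaks under the threshold are not seen.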
